A study of Homo sapiens with 6 samples.

Results

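The core ATPase and scaffold subunits of the human SWI/SNF chromatin remodelling complexes were followed at the RNA level. The set holds 10 genes, SMARCA4, SMARCA2, SMARCB1, SMARCC1, SMARCC2, SMARCD1, SMARCD2, SMARCD3, SMARCE1 and ACTL6A, chosen by symbol from the 58174 genes of the deposited transcript table. All 10 were found, and their transcript counts were summed per gene. The RNA came from MDA-MB-231, an established triple-negative breast cancer line, and was sequenced as total RNA with a kit that keeps strand. The labels define 3 groups of 2 samples each: NC, with the genotype control, and KO1 and KO2, both with the genotype ARID1A knockout. What NC received, how ARID1A was disrupted, and whether KO1 and KO2 are clones, pools or different guides is not given in the sources used here. The table gives 1 column per group, and whether a column is 1 library or both samples combined is not stated. No spread between cultures can therefore be given for any value, and KO1 and KO2 below mean the columns so labelled.

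SWI/SNF complexes use the energy of ATP to slide or evict nucleosomes, and so change which stretches of DNA other proteins can reach. The canonical BAF form carries a single ATPase, either SMARCA4 (BRG1) or SMARCA2 (BRM). The ATPase sits on a scaffold of SMARCC subunits with SMARCB1, SMARCE1 and a SMARCD subunit, while ACTL6A binds the ATPase with actin. ARID1A is a large DNA-binding subunit of this canonical BAF form, and ARID1B can take its place.

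Values are given on scales that answer different questions. CPM is the gene's estimated count brought to a common library size by TMM scaling, and compares a gene between columns. TPM, as deposited, is per transcript length and is the scale on which genes are compared with each other. A difference between single columns passed a size rule when its log2 fold (prior count 2) was at least 1 in size, its exact 95% interval (Clopper-Pearson) excluded equality and the gene's mean was at least 1 CPM. The bracketed intervals cover counting error only, and not the error of dividing fragments among transcripts. Reads that carry no molecular identifier may be copies of 1 molecule, so the intervals may be too narrow. The rule yields no p-value. In bulk RNA, fewer cells that express a gene and less of its RNA per cell cannot be told apart.

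The columns held 25801499 to 26798753 estimated counts. The mitochondrial share of counts was 12.8% in NC, 20.5% in KO1 and 16.9% in KO2, and its part in the differences below was not tested. ARID1A itself was at 77.3 CPM in NC, 45.7 CPM in KO1 and 83.9 CPM in KO2, so its RNA was not lower than in NC in the column labelled KO2. A knockout can leave the level of its RNA as it was, so this level does not settle either label. All 8 listed markers of the line were above 0 in every column, and they summed to 7282, 8836 and 6604 CPM in NC, KO1 and KO2. Among them EGFR, at 152, 429 and 317 CPM, was higher in both knockout columns by the size rule. In KO1 alone KRT18 was higher, at 141, 357 and 208 CPM, and FN1 lower, at 279, 109 and 227 CPM. The 5 leukocyte genes summed to 6.36, 1.83 and 6.89 CPM, mostly CD14 at 5.82, 1.30 and 5.71, with PTPRC at 0, 0 and 0.143. The 5 fibroblast genes summed to 32.0, 50.4 and 39.1 CPM, with DCN at 0 in every column, COL1A1 at 19.8, 49.8 and 36.3 and PDGFRB at 10.8, 0.435 and 2.39. The 4 endothelial genes summed to 4.29, 3.26 and 7.82 CPM. PECAM1, at 3.36, 0.609 and 5.93, led in NC and KO2. KDR, at 0.786, 2.65 and 1.68, led in KO1 and was higher than NC in both knockout columns by the size rule. The 5 luminal genes summed to 84.6, 45.4 and 69.5 CPM, with ERBB2 at 75.7, 28.0 and 52.4, GATA3 at 8.93, 15.4 and 15.6 and ESR1 at 0, 0 and 0.4998. FOXA1 was at 0 in NC, 2.04 CPM in KO1 and 1.07 CPM in KO2 and was higher in both by the size rule. PDGFRB was lower in both knockout columns by the same rule. In KO1 alone CD14, PECAM1 and ERBB2 were lower and COL1A1 higher. The part of these genes in the results below was not tested.

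All 10 core genes were expressed in every column, and the set was most uneven in KO1. In NC they lay between 25.9 TPM (SMARCD3) and 99.6 TPM (SMARCB1), a 3.85-fold span. In KO1 they lay between 5.35 TPM (SMARCD3) and 80.8 TPM (ACTL6A), a 15.1-fold span. In KO2 the range was 13.4 TPM (SMARCD3) to 105 TPM (ACTL6A), a 7.80-fold span. SMARCD3, a SMARCD paralog known from heart and skeletal muscle, was thus the lowest of the 10 genes in each column. Summed over the 10 genes, the level was 513.5 TPM in NC, 350.1 TPM in KO1 and 502.1 TPM in KO2. In CPM, the scale for comparing columns, the sums lay closer together, at 819.4, 664.8 and 798.2. Ranked among protein-coding genes, the 10 genes lay between the 77.3 and 93.5 percentiles in NC, the 57.2 and 93.6 percentiles in KO1 and the 64.8 and 94.4 percentiles in KO2. With 1 column per group, neighbours in these orders have no measured spread, and the orders are a description of the columns.

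**Figure D1:**
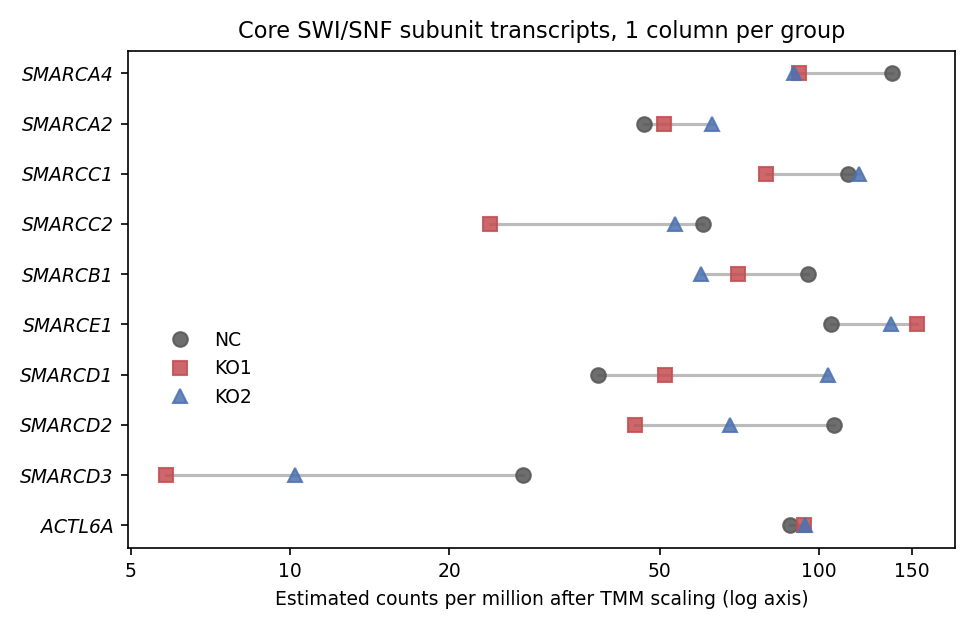
Level of each of the 10 core subunit genes in the NC, KO1 and KO2 columns, in CPM after TMM scaling, on a log axis, with 1 marker per column and a grey line from the lowest to the highest. SMARCD3 is the lowest gene in all 3 columns, at 27.6, 5.83 and 10.2 CPM, and SMARCC2 in KO1 (23.9 CPM) stands apart from NC (60.3 CPM) and KO2 (53.5 CPM).

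Against NC, 3 of the 10 core genes passed the size rule in KO1, SMARCC2, SMARCD2 and SMARCD3, and all 3 were lower. Of all 14524 measured genes, 32.8% passed in that comparison, with 17.4% lower and 15.4% higher, so the count among the core genes lies near the background. The median log2 fold of the 10 genes was -0.48, against -0.01 over all measured genes. Library size scaling alone shifted the median of all genes in KO1 over NC to -0.24, and the same 3 core genes passed under it. The folds of the 10 genes fell between the 4.75 percentile (SMARCD3) and the 72 percentile (SMARCE1) of all measured genes.

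In KO2 against NC, SMARCD1 was higher and SMARCD3 lower, 2 of the 10 core genes beside 21.0% of all measured genes (11.0% higher and 9.98% lower). The median log2 fold of the 10 genes was -0.05, against 0.00 over all measured genes. SMARCD3 was the only core gene lower in both knockout columns by the size rule, which 5.65% of all measured genes met. Its KO2 call was lost in deposited TPM, at a log2 fold of -0.90 in place of -1.43. No core gene was higher in both, which 6.22% of all measured genes met, and none passed in opposite directions, which 0.806% met. Both comparisons use the same NC column, so a low or high value in NC enters each of them.

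KO1 and KO2 carry the same genotype label, and they differed from each other as well. SMARCC2 and SMARCD1 were higher in KO2 than in KO1, 2 of the 10 core genes beside 26.1% of all measured genes, of which 14.9% were higher and 11.2% lower. The median log2 fold of the 10 genes between these columns was 0.44, against 0.04 over all measured genes. SMARCD1 passed here at a log2 fold of 1.02, just inside the rule, and did not pass with DESeq2 size factors or with scaling on nuclear protein-coding genes.

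The test of genotype took both knockout columns as 1 group against NC, in the quasi-likelihood F test of edgeR, two-sided, with Benjamini-Hochberg adjustment over all genes tested. It leaves 1 residual degree of freedom, and its p-values measure the spread between the KO1 and KO2 columns, with the lone NC column assumed to vary like them. The test called 27 of 18289 genes, or 0.148% (0.0547% higher and 0.0930% lower), and 0 of the 10 core genes. At an unadjusted p under 0.05 it held 1 of the 10, SMARCD3, beside 7.70% of all genes tested, and DESeq2 also called 0 of the 10. For SMARCD3 the fitted log2 fold was -1.78 (adjusted p = 0.510, edgeR), with adjusted p-values of 0.351 to 0.772 over the alternatives tried. The other 9 core genes had adjusted p-values between 0.841 (SMARCD2) and 0.994 (ACTL6A) in edgeR. No core gene is therefore said to have changed with the genotype.

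**Figure D2:**
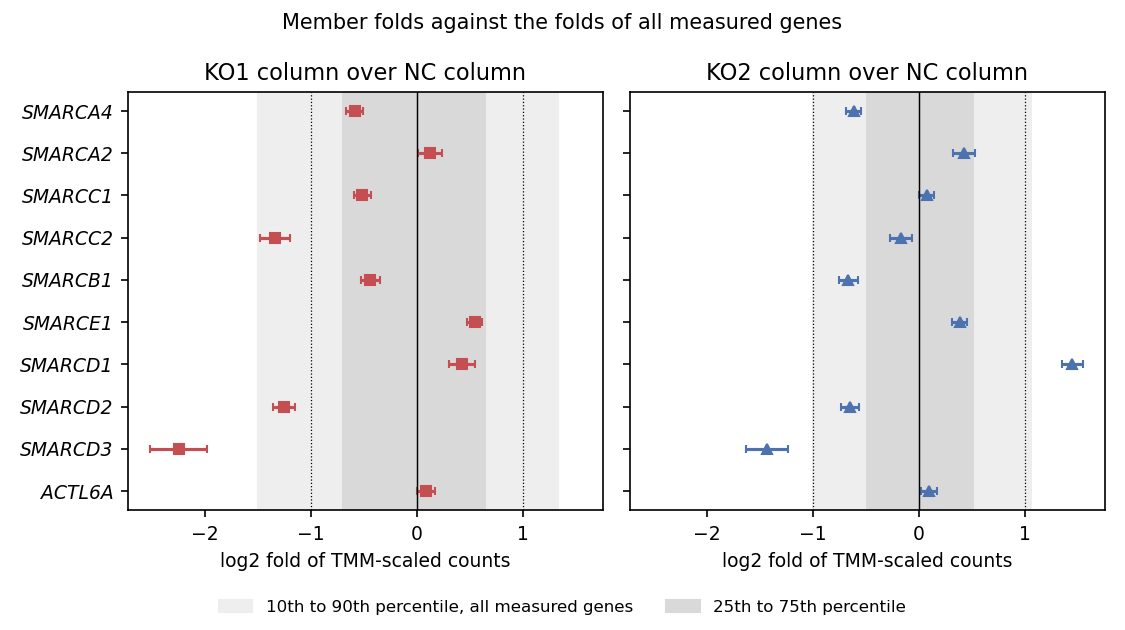
Log2 fold of each core gene in KO1 over NC and in KO2 over NC, from TMM-scaled counts, with bars for the 95% counting interval, grey bands for the middle of the folds of all 14524 measured genes and dotted lines at the size rule. In KO1 only SMARCD3 (-2.23) lies outside the band from the 10 to the 90 percentile (-1.49 to 1.33), and in KO2 SMARCD3 (-1.43) and SMARCD1 (1.44) lie outside theirs (-0.999 to 1.06).

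The ATPases come first. SMARCA4 (ENSG00000127616, hg38 chromosome 19, 10961001 to 11065395, plus strand), the usual ATPase of dividing cells, was at 138 CPM in NC, 91.6 CPM in KO1 and 89.7 CPM in KO2. It was thus lower than NC by a like amount in both knockout columns, 1.503-fold (1.43 to 1.58) in KO1 and 1.53-fold (1.46 to 1.61) in KO2, and passed the size rule in neither. The fitted edgeR log2 fold was -0.60 (adjusted p = 0.95). The transcripts under this sum differed more between the columns than the sum did. SMARCA4-219, a transcript annotated with a retained intron, held 30.8% of the gene's TPM in NC, 61.6% in KO1 and 32.3% in KO2. SMARCA4-208, also annotated with a retained intron, held 19.8%, 13.5% and 20.1% in the same order. Transcripts annotated as protein-coding carried 39.9% of the gene's TPM in NC, 17.6% in KO1 and 39.9% in KO2. The median over the 11754 protein-coding genes compared was 88.8%, 89.4% and 88.1%. Among those with at least 5 transcripts above 0, as SMARCA4 has, it was 81.6%, 81.0% and 80.2%. Counted over protein-coding transcripts alone, SMARCA4 was 3.72-fold (3.35 to 4.14) lower in KO1 than in NC and 1.54-fold (1.43 to 1.65) lower in KO2. On that scale SMARCA4 passed the size rule in KO1, and KO2 lay above KO1 by a log2 fold of 1.27 in place of -0.03. Of the 19 SMARCA4 transcripts in the table, 10 lie at the position that GENCODE release 29 gives them, and SMARCA4-219 is among those that do not.

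SMARCA2 (ENSG00000080503, chromosome 9, 1980290 to 2193624, plus strand), the alternative ATPase, is silenced in some tumour lines. It was at 46.8 CPM in NC, 50.9 CPM in KO1 and 62.7 CPM in KO2, or 1.09-fold (1.005 to 1.18) and 1.34-fold (1.25 to 1.44) of NC, and the edgeR log2 fold was 0.28 (adjusted p = 0.983). Its direction in KO1 depended on the scale: the log2 fold of 0.12 was -0.11 with library size alone, -0.84 over protein-coding transcripts and -1.11 in deposited TPM. In TPM the gene was at 36.8 in NC, 16.6 in KO1 and 42.8 in KO2. The counts in KO1 thus lay on longer transcripts. Transcripts that start near an internal RefSeq start at position 2158464 summed to 687, 0 and 566 counts in the NC, KO1 and KO2 columns. Those near the upstream RefSeq start at position 2015347 summed to 1, 254 and 608 counts, the highest in KO2. Near means within 1000 bases here. SMARCA2-227 starts past that window at 2017488, as does SMARCA2-263 at 2017586, the latter picked out after its values were seen. They had 312, 644 and 128 counts and 155, 8 and 31 counts, so NC also held counts on transcripts that start in that region. Transcripts near the RefSeq starts at 2021945 and 2157662 summed to 0, 9 and 141 counts and to 0, 2 and 24 counts. Transcripts near no RefSeq start, among them SMARCA2-227 and SMARCA2-263, summed to 621, 905 and 417 counts. These held 27.0%, 84.1% and 26.4% of the gene's TPM, and so made up most of the gene in KO1. The internal group held 73.0% of the gene's TPM in NC and 53.2% in KO2. With KO1 set to a floor of 3 counts, the internal group was at least 188-fold lower in KO1 than in NC. All 18 transcripts of that group were at 0 in KO1, while the gene as a whole had 1170 counts there.

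SMARCA2-206 is the main transcript of the internal group and is shown because its first coding stretch belongs to the short form and not to the full-length SMARCA2-203. Its 828 coding bases include 735 that SMARCA2-203 also codes, and both end at the same stop codon. The short form keeps the end of the protein, which holds the bromodomain that binds acetylated histones, and lacks the ATPase domain. The 93 bases of coding sequence that SMARCA2-203 lacks lie at chr9:2159817-2159909 on the plus strand (hg38), with the start codon in capitals:
SMARCA2-206: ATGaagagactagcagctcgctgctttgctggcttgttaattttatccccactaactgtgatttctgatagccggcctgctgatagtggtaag

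SMARCA2-206 had 502, 0 and 455 counts in the NC, KO1 and KO2 columns, or 49.2%, 0% and 39.9% of the gene's TPM. SMARCA2-227, a long transcript annotated for nonsense-mediated decay, had 312, 644 and 128 counts, or 8.28%, 35.7% and 3.04%. The share of annotated protein-coding transcripts in the TPM of SMARCA2 was 77.6% in NC, 41.0% in KO1 and 87.1% in KO2. The 300 bases around the upstream start (250 before it, RefSeq on GRCh38.p14) were 66.7% G and C with 30 CpG dinucleotides, more than 77.6% of 35116 RefSeq promoters. The same window at the internal start was 43.0% G and C with 9 CpG, more than 41.6% of them, against a median of 14. Transcript counts are estimates that divide fragments among overlapping transcripts, so a transcript at 0 may share all of its exons with one that received them, and this was not tested.

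SMARCC1 and SMARCC2 form the dimer on which the complex is built. SMARCC1 (ENSG00000173473, chromosome 3, 47585272 to 47782106, minus strand) was at 113 CPM in NC, 79.3 CPM in KO1 and 119 CPM in KO2. It was 1.43-fold (1.35 to 1.51) lower in KO1 and 1.05-fold (1.001 to 1.10) higher in KO2, so the knockout columns lay on either side of NC. The edgeR log2 fold was -0.19 (adjusted p = 0.989). A single transcript, SMARCC1-201, carried 95.7%, 96.2% and 96.2% of its TPM, and it led in every column. The next, SMARCC1-204, had 8, 4 and 3 counts.

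SMARCC2 (ENSG00000139613, chromosome 12, 56162983 to 56189567, minus strand) was at 60.3 CPM in NC, 23.9 CPM in KO1 and 53.5 CPM in KO2. KO1 stood apart from the other columns: it was 2.53-fold (2.29 to 2.79) lower than NC, and KO2 was 2.24-fold (2.03 to 2.48) higher than KO1. Being lower in KO1 than in both other columns by the size rule was met by 9.47% of all measured genes. KO2 was 1.13-fold (1.05 to 1.21) lower than NC, and over protein-coding transcripts alone that log2 fold was 0.03 in place of -0.17. The edgeR log2 fold of both knockout columns was -0.64 (adjusted p = 0.962). SMARCC2 overlaps MYL6, a myosin light chain gene on the opposite strand, which had 11581, 4175 and 7828 counts in the NC, KO1 and KO2 columns. Whether the counting used strand is not stated, and the part of MYL6 in the SMARCC2 values was not tested.

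The 2 leading SMARCC2 transcripts differ in coding exons and are shown because their order was not the same in every column. SMARCC2-203 had 713, 168 and 465 counts in the NC, KO1 and KO2 columns, and SMARCC2-201 had 667, 337 and 923. In shares of the gene's TPM, SMARCC2-203 was at 36.0%, 26% and 25.9%, and SMARCC2-201 at 35.3%, 54.7% and 53.9%. SMARCC2-203 led in NC by a narrow margin, and SMARCC2-201 led in both knockout columns. SMARCC2-214, annotated for nonsense-mediated decay and picked out after its values were seen, had 235 counts in NC and 0 in both others. The 93-base exon of SMARCC2-203 that SMARCC2-201 skips lies at chr12:56172937-56173029, and the 279 coding bases of SMARCC2-201 that SMARCC2-203 lacks lie at chr12:56164369-56164647, both on the minus strand of hg38:
SMARCC2-203: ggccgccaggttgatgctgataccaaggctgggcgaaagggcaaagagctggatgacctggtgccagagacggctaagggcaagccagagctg
SMARCC2-201: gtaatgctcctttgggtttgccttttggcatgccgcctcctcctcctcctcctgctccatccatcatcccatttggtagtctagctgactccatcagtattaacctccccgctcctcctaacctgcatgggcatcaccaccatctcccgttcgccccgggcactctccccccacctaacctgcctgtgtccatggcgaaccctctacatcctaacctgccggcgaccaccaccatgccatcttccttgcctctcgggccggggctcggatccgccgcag
Both lengths are multiples of 3, so neither shifts the reading frame.

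SMARCB1 and SMARCE1 complete the scaffold. SMARCB1 (ENSG00000099956, chromosome 22, 23786963 to 23834516, plus strand), the subunit lost in rhabdoid tumours, was at 95.3 CPM in NC, 70.3 CPM in KO1 and 59.9 CPM in KO2. It was lower in both knockout columns, 1.36-fold (1.27 to 1.44) in KO1 and 1.59-fold (1.495 to 1.69) in KO2, without passing the size rule, and the edgeR log2 fold was -0.55 (adjusted p = 0.962). Its transcripts separated KO2 from the other columns. SMARCB1-204 had 2278, 1544 and 390 counts in the NC, KO1 and KO2 columns, or 79.7%, 90.8% and 21.3% of the gene's TPM. SMARCB1-201 had 337, 32 and 789 counts, and SMARCB1-203 had 0, 0 and 355. Only 2 of its 9 transcript models lie where GENCODE release 29 places them, and none of these 3 does, so their exons are not described.

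SMARCE1 (ENSG00000073584, chromosome 17, 40624962 to 40648508, minus strand), a DNA-binding HMG-box subunit of the scaffold, was at 105 CPM in NC, 153 CPM in KO1 and 137 CPM in KO2. It was higher in both knockout columns, 1.46-fold (1.39 to 1.53) and 1.30-fold (1.24 to 1.37), below the size rule, and the edgeR log2 fold was 0.46 (adjusted p = 0.970). SMARCE1-202, protein-coding, had 2396, 1912 and 3524 counts in the NC, KO1 and KO2 columns. SMARCE1-207, annotated with a retained intron, had 93, 1085 and 27 counts, 14.2-fold (11.5 to 17.7) higher in KO1 than in NC in CPM. Its share of the gene's TPM was 5.63%, 35.2% and 1.43%. Counted over protein-coding transcripts alone, SMARCE1 was 1.11-fold (1.05 to 1.18) higher in KO1 than in NC and 1.48-fold (1.40 to 1.55) higher in KO2, so the order of the knockout columns turned. Only 2 of its 19 transcript models lie at the GENCODE release 29 position. Copies of SMARCE1 annotated as pseudogenes had at most 6 counts in any column.

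The SMARCD genes encode 3 paralogs (BAF60A, BAF60B and BAF60C) that link the complex to transcription factors, and a complex holds only 1 kind. They held the highest and the lowest log2 folds against NC in KO2, and the lowest in KO1. SMARCD1 (ENSG00000066117, chromosome 12, 50084972 to 50100712, plus strand) was at 38.2 CPM in NC, 51.2 CPM in KO1 and 104 CPM in KO2. KO2 was 2.72-fold (2.54 to 2.92) higher than NC and 2.03-fold (1.90 to 2.17) higher than KO1, while KO1 was 1.34-fold (1.23 to 1.46) higher than NC. Being higher in KO2 than in both other columns by the size rule was met by 3.23% of all measured genes. The edgeR log2 fold was 1.02 (adjusted p = 0.867).

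SMARCD1-201 had 539, 884 and 2436 counts in the NC, KO1 and KO2 columns, or 28.9%, 42.8% and 64.1% of the gene's TPM. SMARCD1-207, annotated as a processed transcript, had 24, 67 and 47 counts. SMARCD1-202, picked out after its values were seen, contains 1 more coding exon than SMARCD1-201 and had 193, 108 and 167 counts, so the column with the highest SMARCD1 level was not its highest. The exon is shown because it separates the 2 coding forms, is 123 bases long, a multiple of 3, and lies at chr12:50096850-50096972 on the plus strand of hg38:
SMARCD1-202: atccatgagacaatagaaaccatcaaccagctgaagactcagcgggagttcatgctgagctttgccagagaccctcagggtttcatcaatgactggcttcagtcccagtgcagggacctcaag

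SMARCD2 (ENSG00000108604, chromosome 17, 63832081 to 63843065, minus strand), a paralog with a known part in granulocyte maturation, was at 107 CPM in NC, 44.9 CPM in KO1 and 67.9 CPM in KO2. It was lower than NC in both knockout columns, 2.38-fold (2.22 to 2.56) in KO1 and 1.57-fold (1.49 to 1.67) in KO2, and passed the size rule in KO1. The edgeR log2 fold was -0.92 (adjusted p = 0.841). The leading transcript was the same in NC and KO1 and another in KO2. SMARCD2-203 had 2943, 1018 and 632 counts in the NC, KO1 and KO2 columns, or 94.4%, 97.4% and 24.0% of the gene's TPM. SMARCD2-201 had 0, 0 and 1207 counts, or 69.3% of the gene's TPM in KO2. SMARCD2-203 belongs to the RefSeq start at position 63842685 and SMARCD2-201 to the next one downstream, at 63842466. The coding stretch below opens SMARCD2-203, which has 1593 coding bases, and is absent from SMARCD2-201, which has 1368. It lies at chr17:63842467-63842674 on the minus strand of hg38, 208 bases that end where SMARCD2-201 begins, with the start codon in capitals:
SMARCD2-203: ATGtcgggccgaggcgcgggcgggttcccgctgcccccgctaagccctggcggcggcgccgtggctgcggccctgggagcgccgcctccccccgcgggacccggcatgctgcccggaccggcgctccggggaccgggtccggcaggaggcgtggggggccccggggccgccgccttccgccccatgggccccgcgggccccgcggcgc

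SMARCD3 (ENSG00000082014, chromosome 7, 151238764 to 151277896, minus strand) was at 27.6 CPM in NC, 5.83 CPM in KO1 and 10.2 CPM in KO2. Both knockout columns lay below NC, 4.74-fold (3.94 to 5.74) in KO1 and 2.70-fold (2.36 to 3.11) in KO2. KO2 was 1.75-fold (1.42 to 2.17) higher than KO1 and did not pass the size rule against it, though it did with library size alone (log2 fold 1.06) and in deposited TPM (1.18). In deposited TPM the gene was at 25.9, 5.35 and 13.4, and KO2 did not pass against NC. Its protein-coding transcripts stood further from NC than the gene did in counts: their sum was 11.5-fold (7.84 to 17.5) lower in KO1 and 7.26-fold (5.45 to 9.84) lower in KO2. SMARCD3-203 had 263, 28 and 54 counts in the NC, KO1 and KO2 columns. SMARCD3-201, picked out after its values were seen, had 129 counts in NC and 0 in both knockout columns. SMARCD3-206, annotated with a retained intron, had 213, 66 and 128 counts, and SMARCD3-215, annotated as a processed transcript, had 11, 13 and 31. Coding transcripts thus made up 43.1% of the gene's TPM in NC, 13.8% in KO1 and 11.8% in KO2. SMARCD3 overlaps CHPF2, a chondroitin synthesis gene on the opposite strand, which had 1460, 299 and 1297 counts in the NC, KO1 and KO2 columns. CHPF2 was low in KO1 alone, and its part in the SMARCD3 values was not tested.

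ACTL6A (ENSG00000136518, chromosome 3, 179562880 to 179588408, plus strand), the actin-related subunit of proliferating cells, was at 88.2 CPM in NC, 93.6 CPM in KO1 and 94.1 CPM in KO2, or 1.06-fold (1.001 to 1.12) and 1.07-fold (1.01 to 1.13) of NC. These were the smallest differences from NC among the 10 genes in KO1, and in KO2 only SMARCC1 was nearer to NC. The log2 fold of 0.09 in KO1 was -0.14 with library size alone and -0.25 in deposited TPM. The edgeR log2 fold was 0.09 (adjusted p = 0.994). Under this even total, the transcript with the most counts was not the same in all columns. ACTL6A-201 had 1324, 0 and 1214 counts in the NC, KO1 and KO2 columns, and ACTL6A-203 had 298, 1594 and 378. Both are annotated with the same 1161 coding bases. Its neuronal paralog ACTL6B had 0 counts in all 3 columns, so ACTL6A made up all of that pair. ACTL6A overlaps MRPL47 on the opposite strand, at 1417, 1927 and 1747 counts.

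Paralogs that fill the same seat were compared as shares of their summed TPM. SMARCA4 made up 60.5% of the ATPase pair in NC, 67.8% in KO1 and 47.2% in KO2, and SMARCA2 the rest, so that SMARCA2 led in KO2 alone. The internal-start group held 26.9, 0 and 22.8 of the 36.8, 16.6 and 42.8 TPM of SMARCA2. Its main transcript, SMARCA2-206, lacks the ATPase domain, so these are not shares of ATPase-coding RNA. Over protein-coding transcripts SMARCA2 led in every column, with 55.9%, 52.6% and 70.9%, and by counts SMARCA4 did. That coding TPM of SMARCA2 was 28.6, 6.80 and 37.3, of which SMARCA2-206 held 18.1, 0 and 17.1. The KO1 direction of this pair depended on the scale: SMARCA4 was 7.32 percentage points higher in KO1 than in NC by TPM, and its share was 74.6% in NC and 64.3% in KO1 by counts. SMARCC1 made up 52.7% of its pair with SMARCC2 in NC, 66.1% in KO1 and 56.2% in KO2. In the SMARCD family, SMARCD2 led in NC with 52.8%, followed by SMARCD1 with 26.4% and SMARCD3 with 20.8%. SMARCD1 led in KO1 with 56.8% and in KO2 with 49.5%, and SMARCD2 was at 34.3% and 41.0%. The order of SMARCD1 and SMARCD2 in both knockout columns rested on the transcripts counted. Over protein-coding transcripts SMARCD2 led, with 52.4% in KO1 and 49.9% in KO2, against 45.7% and 48.7% for SMARCD1. SMARCD3 was at 8.88% and 9.52% in the knockout columns. Shares have no interval because TPM values are not counts, and no test was made.

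**Figure D3:**
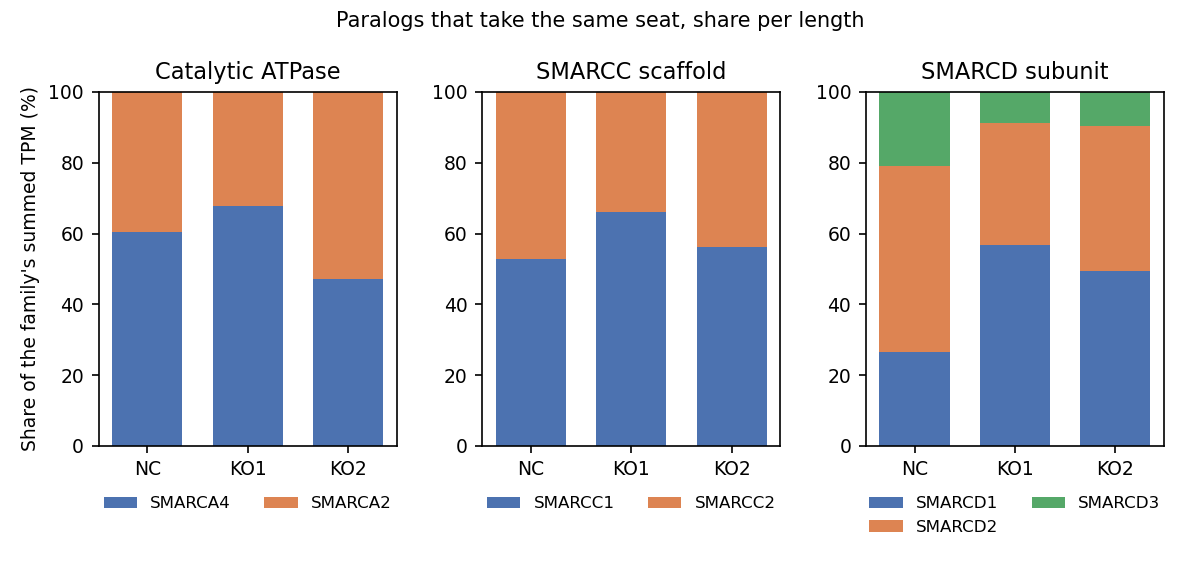
Share of each paralog in the summed TPM of its family, in percent, for the ATPase pair, the SMARCC pair and the SMARCD family, with 1 stacked bar per column. SMARCD1 goes from 26.4% of the SMARCD family in NC to 56.8% in KO1 and 49.5% in KO2, while SMARCA4 is at 60.5%, 67.8% and 47.2% of the ATPase pair. The SMARCA2 share includes its internal-start group, whose main transcript lacks the ATPase domain.

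Transcript use differed between columns in most of the core genes, as it did in most genes. A transcript's share of its gene's TPM differed by 20 percentage points or more between some pair of columns for 14 transcripts in 8 of the 10 genes. SMARCC1 and SMARCC2 were the genes with none. Over 11754 protein-coding genes, 60.2% had such a transcript, and among the 7928 with at least 5 transcripts above 0 the share was 68.8%. The leading transcript was the same in all 3 columns for SMARCA4, SMARCC1 and SMARCD1, 3 of the 10 genes, against 56.0% of the 11754 genes and 47.4% of those with at least 5 transcripts above 0. SMARCA2-206 and ACTL6A-201 were at 0 in KO1 alone, whereas SMARCD2-201 and SMARCB1-203 were above 0 in KO2 alone. Each of these shares rests on 1 column, and how fragments were divided among transcripts is not stated.

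**Figure D4:**
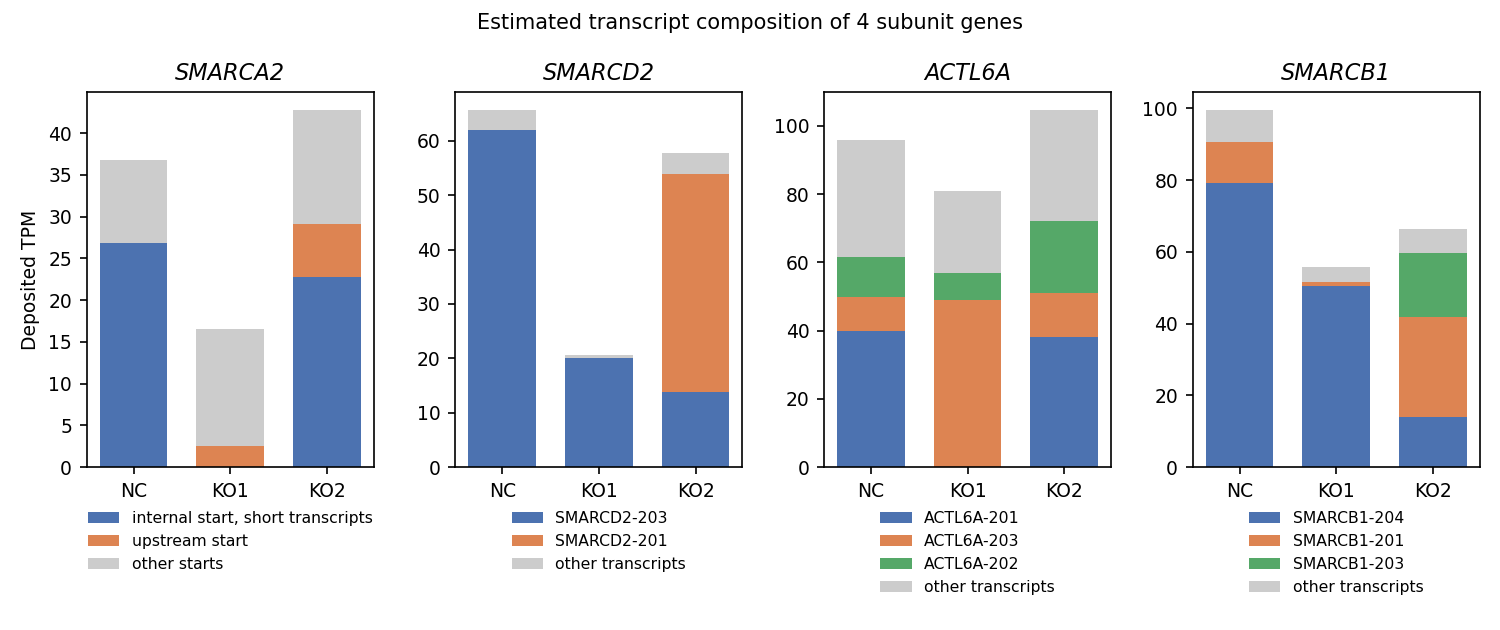
Deposited TPM of the transcripts of SMARCA2 (grouped by start), SMARCD2, ACTL6A and SMARCB1, with 1 stacked bar for each of the NC, KO1 and KO2 columns. The internal-start group of SMARCA2 is at 26.9, 0 and 22.8 TPM, ACTL6A-201 at 40.0, 0 and 38.1 TPM, SMARCD2-201 at 0, 0 and 40.0 TPM and SMARCB1-203 at 0, 0 and 17.9 TPM.

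The core genes were also set beside the 100 measured genes nearest to them on the chromosome. The neighbours' median log2 fold against NC ranged from -0.35 (around SMARCB1) to 0.38 (around ACTL6A) in KO1 and from -0.29 (around SMARCE1) to 0.42 (around ACTL6A) in KO2. For SMARCB1 in KO1 the gene's log2 fold of -0.44 lay 0.09 below that of its neighbours, whose median was -0.35. For SMARCD1 the neighbours were at 0.34 in KO1 and 0.37 in KO2, and the gene stood 0.09 above them in KO1 and 1.07 above them in KO2. SMARCD3 lay 1.96 below its neighbours in KO1 and 1.19 below in KO2, and of its 100 neighbours 10% and 11% were lower still. SMARCC2 lay 1.23 below its neighbours in KO1, and SMARCD2 lay 1.09 below in KO1 and 0.71 below in KO2. SMARCE1 went the other way, 0.84 above its neighbours in KO1 and 0.67 above in KO2, where 82% and 87% of them were lower than the gene. ACTL6A, near NC in both columns, lay below its neighbours by 0.29 in KO1 and 0.32 in KO2. Copy number was not analysed here, and its part in these values was not tested.

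**Figure D5:**
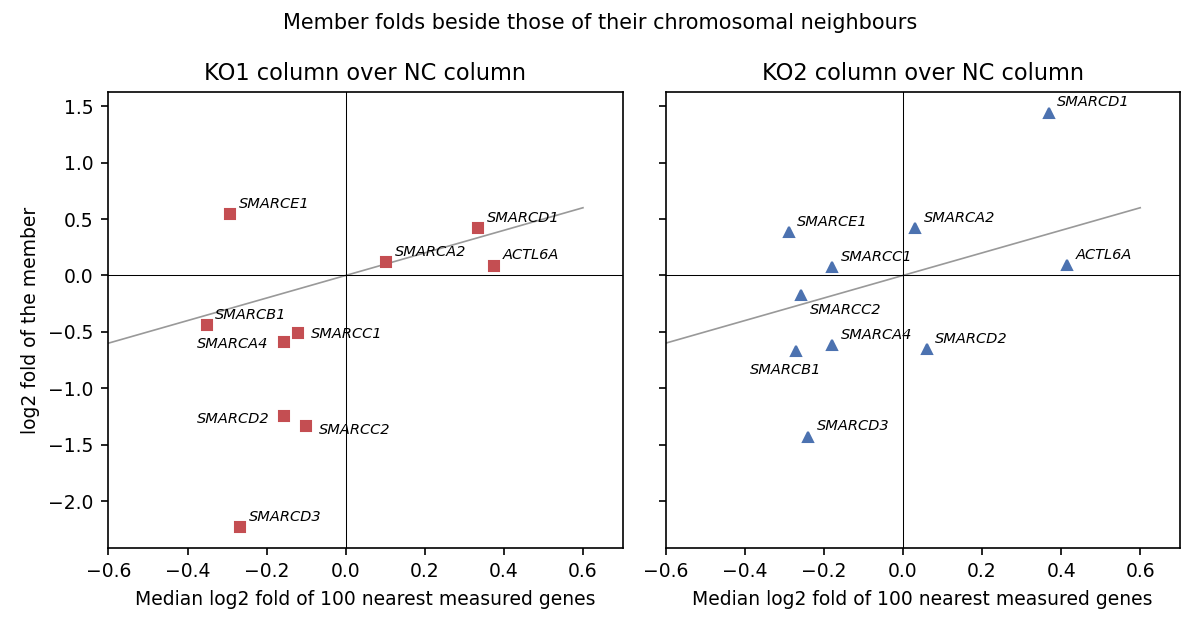
Log2 fold against NC of each core gene (vertical axis) beside the median log2 fold of the 100 measured genes nearest to it on its chromosome (horizontal axis), for KO1 and KO2, with a line where both are equal. SMARCD3, SMARCD2 and SMARCC2 lie 1.96, 1.09 and 1.23 below their neighbours in KO1, and SMARCD1 lies 1.07 above them in KO2.

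Of 21 other subunits listed, 18 were measured. Against NC, 2 were higher (BICRAL and BCL7B) and 2 lower (PBRM1 and DPF1) in KO1, beside 15.4% higher and 17.4% lower over all measured genes. In KO2, 1 was higher (PHF10) and 1 lower (DPF1), beside 11.0% and 9.98%. Their median log2 folds were -0.13 and 0.20, against -0.48 and -0.05 for the 10 core genes, and the lists were not tested against each other. DPF1, a histone-reading subunit, was the only one lower in both knockout columns, at 13.3 CPM in NC, 2.52 CPM in KO1 and 6.07 CPM in KO2 (adjusted p = 0.747, edgeR). ARID1B, the paralog of ARID1A, was at 16.8, 20.2 and 29.3 CPM and passed in neither column. Between the knockout columns 4 of the 18 were higher and 1 lower in KO2 than in KO1, beside 14.9% and 11.2% of all measured genes. The edgeR test called 0 of the 18, and DESeq2 called 0. In edgeR 1 of them, PHF10, had an unadjusted p under 0.05, beside 7.70% of all genes tested. Among 19 ATPases and shared subunits of other remodellers, 1 was higher and 5 were lower in KO1, beside the same 15.4% and 17.4%, and 1 was higher and 1 lower in KO2, beside 11.0% and 9.98%. Their medians were -0.33 and -0.13. Between the knockout columns 7 of the 19 were higher and 1 lower in KO2 than in KO1, beside 14.9% and 11.2%, with a median of 0.15. SRCAP, the ATPase that deposits the histone variant H2A.Z, was the only one lower in both, at 102, 44.3 and 46.3 CPM (adjusted p = 0.645, edgeR). The edgeR test called 0 of these 19, with 1 at an unadjusted p under 0.05, and DESeq2 called 0.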

How the data were processed

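Total RNA of 6 MDA-MB-231 samples in 3 groups was measured, and the authors deposited 1 transcript table with 1 column per group for each unit. Per the file headers it holds counts and TPM, the latter per length. Its counts were treated as estimated counts that the authors made for each transcript and rounded to whole numbers. The TPM deposited by the authors were summed per gene as they stand. The build in the submitters' processing notes is hg38, and the tools are CASAVA, Bowtie2 and featureCounts, with no version or step for any. The tool that estimated transcript values is not given in the sources used here. The 3 other value columns were not used.

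The 10 genes, the other lists and the rules were chosen with earlier results of these data known. Symbols came from the current gene table (57392 of 58174 gene IDs), and transcript names and types from GENCODE release 29, which places 196287 of 199167 transcripts at the same position. RefSeq promoters (GRCh38.p14) matched 7 of the 10 genes, and a transcript was assigned to the nearest RefSeq start within 1000 bases. Counts were filtered with filterByExpr, scaled by TMM and tested with edgeR 4.0.16 in R 4.3.3, with robust estimation of the spread, and DESeq2 1.42.0 was an alternative. The procedure was tested on simulated data in which KO1 and KO2 shared the same means. In these data 26.1% of measured genes passed the size rule between those columns. That run therefore does not show how the test behaves here. Genes below a mean of 1 CPM were left out of the size rule, and for a bound a column at 0 took a floor of 3 counts. All 10 genes are named. Transcripts named are the 2 highest of each gene by mean TPM and those whose share differed by 20 percentage points or more between columns, and others are marked as picked after their values were seen. Other subunits are named with values only when they passed in the same direction in both columns, besides ARID1A. ARID1B was added after its values were seen.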

Additional observations from a re-analysis of the deposited data

Results flagged for a closer look

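SMARCC1, a scaffold subunit, lay on opposite sides of NC in the columns labelled KO1 and KO2. Its log2 fold over NC was -0.51 in KO1 and 0.072 in KO2. Both comparisons use the same NC column, each group has 1 column, and the difference was not tested.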

How the results depend on the processing

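The edgeR count of genes called over the whole table moved from 27 to 14 with DESeq2 size factors, 0 with library size alone (1132 at an unadjusted p under 0.05), 6 with nuclear protein-coding genes alone, 493 with no low-count filter and 306 with DESeq2. Without robust estimation, chosen after seeing the data, it was 48. The count among the 10 core genes was 0 in each of these 7 fits, with SMARCD3 at adjusted p-values of 0.351 to 0.772. In the size rule, KO1 against NC gave 3 or 4 core genes under every alternative. The share of all measured genes that passed ranged from 28.2% (deposited TPM) to 54.3% (1.5-fold threshold). KO2 against NC went from 2 to 5 at a 1.5-fold threshold and to 1 in deposited TPM, where SMARCD3 was lost. Of all measured genes 43.1% and 14.9% passed under these 2 settings. KO2 against KO1 went from 2 to 1 with DESeq2 size factors and to 1 with scaling on nuclear protein-coding genes, beside 26.1% and 26.5% of all measured genes. It went to 3 with library size alone (SMARCD3 added, beside 28.8%) and 5 at 1.5-fold (beside 47.9%). Over protein-coding transcripts it was 4 (beside 30.4%), and in deposited TPM 5 (beside 23.6%). With protein-coding transcripts alone the share of SMARCA4 in KO1 minus NC was 3.38 percentage points in place of 7.32, that of SMARCC1 9.51 in place of 13.45 in KO1 and 0.41 in place of 3.57 in KO2, and that of SMARCD1 22.96 in place of 30.38 in KO1 and 25.98 in place of 23.09 in KO2. By counts, the SMARCA4 share reversed to -10.35 in KO1 and was -15.78 in place of -13.28 in KO2, and the SMARCD1 share was 34.96 in KO2. Counts are not per length, and the cause of the other moves was not tested. The number of core transcripts whose share differed by 20 percentage points or more was 14 by TPM and 15 by counts.

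Leaving out KO1 or KO2 gave SMARCC1 log2 folds of -0.51 (KO1 alone) to 0.072 (KO2 alone) against a fitted -0.19, so its sign rests on KO1. With library size alone the fitted log2 fold of ACTL6A was -0.0002. The other 78 fitted folds of the core genes kept their direction. The single-column folds were less stable: under the alternatives 124 stayed inside their counting interval and 56 moved outside it. Some changed sign, as SMARCB1 did in KO2 over KO1, from -0.23 to 0.25 in deposited TPM. Leave-one-out left 1 column against 1, which has no test, so no count of calls was made. No paired analysis was possible because the columns carry no replicate numbers. Each core gene had 134 (SMARCD3 in KO1) to 3852 (SMARCA4 in NC) counts in a column. Counting intervals cover no spread between cultures, which 1 column per group cannot give.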
